A study of Homo sapiens with 6 samples.

Results

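The genes described here code for the nuclear-encoded subunits of the mitochondrial respiratory chain and ATP synthase. They were chosen by name: protein-coding symbols of the NDUFA, NDUFB, NDUFC, NDUFS and NDUFV series, SDHA to SDHD, the UQCR genes, the COX4I, COX5, COX6, COX7 and COX8 subunits, and the ATP5F, ATP5M and ATP5P genes, with pseudogenes and assembly factors left out. This gave 84 genes of 28484 in the deposited table, with 36 in complex I, 4 in complex II, 9 in complex III, 17 in complex IV and 18 in complex V. RNA had been sequenced from A549 cells, an established lung adenocarcinoma line, and the study compared cells depleted of CBX8, one of the chromobox proteins of Polycomb repressive complex 1, with control cells. All groups had been infected with lentivirus, grown in Dulbecco's modified Eagle's medium with fetal bovine serum, and kept as stable lines. The control group carried a control construct, and the groups titled shcbx8-1 and shcbx8-2 carried a shCBX8 short hairpin RNA. Each group had 2 libraries. The labels do not explain the first number of the shcbx8 titles. They do not say either that a group's libraries are separate cultures, so the p-values reflect sample-to-sample spread that could be technical only.

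The respiratory chain sits in the inner mitochondrial membrane. Complexes I and II feed electrons from NADH and succinate to ubiquinone, complex III passes them to cytochrome c, complex IV hands them to oxygen, and complex V uses the resulting proton gradient to make ATP. All but complex II are built from nuclear and mitochondrial gene products together, and several small subunits of complex IV come in isoforms that differ between tissues.

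Before the members, the libraries were checked. Total estimated counts were 64197784 to 67169537 per library, and the members took 0.953 to 1.11% of them. Levels are given as CPM, counts brought to a common library total with TMM normalisation. CBX8 was lower in all 4 knockdown libraries than in the controls, at 24.6 and 26.3 CPM. It had 7.79 and 7.70 CPM in shcbx8-1 and, in shcbx8-2, 17.7 and 13.8. Against control its log2 fold change was -1.72 in shcbx8-1 and -0.69 in shcbx8-2 (edgeR adjusted p = 0.00721 and 0.0298). CBX8 was 1.02 higher in shcbx8-2 than in shcbx8-1 (edgeR adjusted p = 0.0116). Its mean log2 fold change over both knockdown groups was -1.20 ± 0.13 (SE, edgeR quasi-likelihood test, adjusted p = 0.00768), and this call ended without a control library or a shcbx8-1 library (adjusted p up to 0.140). The 10 epithelial and A549 markers summed to 31265 and 30502 CPM in control, 27765 and 28479 in shcbx8-1 and, in shcbx8-2, 35401 and 31932. Of the 9 tested, 0 rose and 3 fell for the mean of both knockdown groups. The cadherin CDH1 had a log2 fold change of -0.55, and the enzymes AKR1C1 and ALDH1A1 of -0.36 and -0.30 (edgeR adjusted p = 0.0314, 0.0346 and 0.0462). These calls ended in 6, 7 and 10 of 14 alternatives. In shcbx8-1 and shcbx8-2 the values were -0.92 and -0.18 for CDH1 and -0.50 and -0.23 for AKR1C1. ALDH1A1 was higher than control in shcbx8-1, at 0.21, and lower in shcbx8-2, at -0.82. Between the hairpin groups 4 of the 9 were higher and 2 lower in shcbx8-2. The higher ones, in the direction of most members, were KRT8 and KRT18, keratins of simple epithelia, each by 0.45 (edgeR adjusted p = 0.00863 and 0.0103), EPCAM by 0.88 and CDH1 by 0.74. The lower ones were ALDH1A1, with -1.03 (edgeR adjusted p = 0.00135), and NKX2-1, with -2.88 (edgeR adjusted p = 0.0316). NKX2-1 had at most 2.59 CPM in any library. The surfactant gene SFTPC had at most 0.182 CPM. Of 7 leukocyte markers, CD3E was at 0 in all libraries, PTPRC had at most 0.181 CPM, and the list summed to 93.8 and 97.0 CPM in control, 143 and 140 in shcbx8-1 and, in shcbx8-2, 116 and 110, mostly CD68 and CORO1A. Among the 4 tested, CORO1A and CD68 rose over both knockdown groups, by 1.15 and 0.36 on the log2 scale (edgeR adjusted p = 0.00842 and 0.0276). CD14 and LYZ, at -0.67 and -0.24, did not pass. The calls of CORO1A and CD68 ended in 5 and 6 of 14 alternatives. The 7 fibroblast markers summed to 12.3 and 14.7 CPM in control, 8.47 and 9.54 in shcbx8-1 and, in shcbx8-2, 6.24 and 5.55, with DCN at 0 throughout, and the 5 endothelial markers to 1.88 to 5.72 CPM, with KDR at 0. Among the 5 fibroblast markers tested, COL1A1 alone passed over both knockdown groups, with -0.86 (edgeR adjusted p = 0.0238). Its call ended in 5 of 14 alternatives. The 5 markers of HEK293-type cells summed to 780 and 781 CPM in control, 803 and 801 in shcbx8-1 and, in shcbx8-2, 784 and 685. Most of this was UCHL1, at 666 to 763 CPM. Of the 4 tested, NEFL alone passed. Its log2 fold change in shcbx8-2 was -1.04 against control and -1.52 against shcbx8-1 (edgeR adjusted p = 0.00361 and 0.00111). The part of all these markers in the results on the members was not tested. In bulk libraries such as these, fewer cells of a type and less RNA per cell cannot be told apart.

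Most of the chosen genes differed from control by small amounts, and by edgeR COX7C was the one that passed against control in both knockdown groups. In shcbx8-2, 48 of the 78 tested lay above both controls, against 26% of all genes. The median log2 fold change of the 78 there was 0.14. Of the 84 genes, 4 were at 0 in all libraries (COX4I2, COX6A2, COX8C and ATP5MGL) and COX7A1 and COX7B2 stayed below the filter on low counts, with at most 0.175 CPM, which left 78 tested. For the mean of both knockdown groups against control, 1 of 78 passed an adjusted p of 0.05, against 6.77% of all 17132 genes tested. In shcbx8-1 against control it was again 1 of 78, with 2.4% of all genes, in shcbx8-2 against control 4 of 78, with 12.6%, and in shcbx8-2 against shcbx8-1 7 of 78, with 9.75%. Each of these counts, as a share of 78, is at or below that of all genes. All of these member calls were increases, with 0 decreases. Of all genes 3.3%, 1.3%, 6% and 4% were called upward and 3.47%, 1.1%, 6.63% and 5.75% downward in the same order of comparisons, and the 7 between the hairpin groups are the one count above that background. These 7 calls ended in each fit without a control or a shcbx8-1 library (adjusted p from 0.0614 to 0.282), and all 7 passed without shcbx8-2 replicate 1 or replicate 2. By DESeq2, 2 of 78, 5 of 77, 17 of 78 and 22 of 78 members passed in the same order, against 14.2%, 9.97%, 20.8% and 17.3% of the genes it tested.

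The 3 promoters printed here belong to members that passed against control: COX7C, whose level changed most, and ATP5PD and NDUFA6, which passed in shcbx8-2. Each runs from 250 bases before to 50 after the gene's start in RefSeq's annotation of GRCh38.p14, at chr5:86617691-86617990 on the plus strand for COX7C, chr17:75046920-75047219 on the minus strand for ATP5PD and chr22:42090723-42091022 on the minus strand for NDUFA6. Capitals mark letters that match a motif. In COX7C these are ACTACANTTCCCA, letters taken from its own repeated stretch that resemble the core of the site of the factor ZNF143 (STAF). The N is the base at which the copies differ. In ATP5PD they are the reverse complement of CCGGAAG, the core of ETS factors such as GABP. In NDUFA6 they are first GCATGCGC, the core of NRF1, and then AAGATGGC, the core of YY1.
COX7C: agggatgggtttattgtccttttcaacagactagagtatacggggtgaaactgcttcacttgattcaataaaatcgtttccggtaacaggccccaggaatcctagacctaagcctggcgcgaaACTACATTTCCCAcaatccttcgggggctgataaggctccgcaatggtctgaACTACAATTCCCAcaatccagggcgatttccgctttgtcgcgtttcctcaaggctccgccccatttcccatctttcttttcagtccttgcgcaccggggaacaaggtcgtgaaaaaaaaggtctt
ATP5PD: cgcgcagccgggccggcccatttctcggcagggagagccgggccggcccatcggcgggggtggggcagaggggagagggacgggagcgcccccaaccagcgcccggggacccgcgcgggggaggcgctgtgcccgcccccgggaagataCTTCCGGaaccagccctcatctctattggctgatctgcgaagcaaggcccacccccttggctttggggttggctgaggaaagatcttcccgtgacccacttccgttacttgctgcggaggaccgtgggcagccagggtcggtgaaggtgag
NDUFA6: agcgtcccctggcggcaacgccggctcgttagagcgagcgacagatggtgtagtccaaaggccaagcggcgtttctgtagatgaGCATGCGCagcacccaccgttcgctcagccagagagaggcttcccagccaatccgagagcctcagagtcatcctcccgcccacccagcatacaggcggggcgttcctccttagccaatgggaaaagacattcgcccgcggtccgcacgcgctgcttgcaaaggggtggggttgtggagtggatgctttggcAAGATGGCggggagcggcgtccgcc
The COX7C window holds the ZNF143 letters at -127 to -115 and again at -75 to -63, counted from 0 at the first base of the gene. They lie in a stretch of 20 bases that the window holds 2 times with 1 difference, at -128 to -109 and -76 to -57. The ETS letters of ATP5PD lie at -101 to -95, the NRF1 letters of NDUFA6 at -166 to -159 and its YY1 letters at 25 to 32.

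Complex IV, cytochrome c oxidase, held the member with the clearest difference. COX7C (gene 1350, GRCh38.p14 chromosome 5, 86617941 to 86620962), a small membrane subunit made by every tissue, had 75.6 and 74.5 CPM in control, 133 and 138 CPM in shcbx8-1 and, in shcbx8-2, 154 and 144. All 4 knockdown libraries thus lay far above both controls, and the libraries of each group lay close together. In estimated counts these were 5017 and 4983, 8651 and 9081, and 9785 and 9079, from a single deposited transcript. The mean levels were 75.1 ± 0.835, 135 ± 3.54 and 149 ± 6.98 CPM (SD, n = 2).

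COX7C rose by 0.92 ± 0.07 on the log2 scale over both knockdown groups (SE, edgeR adjusted p = 0.00298). Against control it rose by 0.85 ± 0.07 in shcbx8-1 (edgeR adjusted p = 0.00673) and by 0.99 ± 0.07 in shcbx8-2 (edgeR adjusted p = 0.00172). The 2 hairpin groups differed by 0.14 ± 0.07 (edgeR adjusted p = 0.277). The shcbx8-2 call held in each of the 14 alternatives tried. The call over both groups ended without control replicate 1 (adjusted p = 0.0761) or 2 (0.0928), and that in shcbx8-1 ended without either control (0.107 and 0.118) or either shcbx8-1 library (0.104 and 0.117), with a log2 fold change between 0.83 and 0.94 in all of these fits. A fit that leaves a group with 1 library takes that library to vary like the others.

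**Figure D1:**
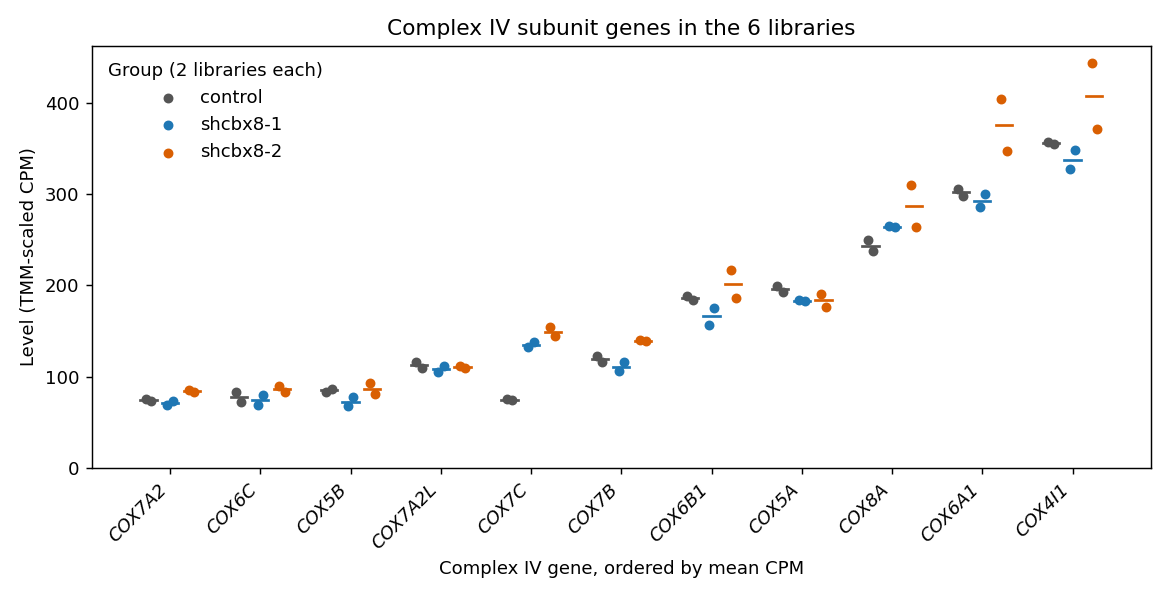
TMM-scaled CPM of 11 complex IV subunit genes (x axis, ordered by mean CPM) in the 6 libraries. Points are libraries, coloured by group, and short lines are group means. COX7C stands at 133 to 154 CPM in the 4 knockdown libraries and 74.5 to 75.6 CPM in control. The other genes differ less from control in proportion.

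By edgeR 0 of the other 11 complex IV subunits tested passed against control in either hairpin group. Of all genes, 2.4% passed in shcbx8-1 and 12.6% in shcbx8-2. At an unadjusted p under 0.05 there were 0 of the 11 in shcbx8-1 and 3 in shcbx8-2, beside 17.2% and 29.2% of all genes. By DESeq2 there were 0 and 2, beside 9.97% and 20.8%. The 2 were COX6A1 and COX7B, both higher than control. With 11 genes such counts do not set these subunits apart from all genes. COX4I1, the ubiquitous form of the regulatory subunit 4, had 357 and 355 CPM in control, 327 and 349 CPM in shcbx8-1 and, in shcbx8-2, 444 and 372, while its lung- and hypoxia-associated isoform COX4I2 had no counts. COX6A1, the non-muscle form, had, in the same order, 306 and 298, 286 and 300, and 404 and 348 CPM, and the heart and muscle form COX6A2 had no counts. Both shcbx8-2 libraries were above all others for these ubiquitous forms, while the shcbx8-1 libraries lay within or below the control range.

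Of the other isoform groups, COX6B1 had 188 and 184 CPM in control, 157 and 175 in shcbx8-1 and, in shcbx8-2, 217 and 187. The testis form COX6B2 had at most 0.463 CPM and was at 0 in 1 control and 1 shcbx8-2 library, so no fold is read from it. COX7A2, the widely expressed form of subunit 7A, had 75.5 and 73.3, 69.4 and 73.5, and 85.9 and 83.1 CPM, and the muscle form COX7A1 at most 0.175 CPM. COX7A2L, which helps join complexes III and IV into supercomplexes, had 116 and 109, 105 and 112, and 112 and 110 CPM. COX8A had 250 and 238, 265 and 264, and 310 and 264 CPM, and the testis form COX8C was at 0. All 4 knockdown libraries were above both controls for COX8A, which did not pass over both knockdown groups (edgeR adjusted p = 0.232). The testis form COX7B2 had no counts in either control, and 4 counts in 1 library of each hairpin group. The ubiquitous isoform of each group was thus well detected in every library, and the restricted forms that had counts stayed below 1 CPM.

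Between the hairpin groups 2 complex IV genes passed. COX6A1 was higher by 0.36 ± 0.09 on the log2 scale in shcbx8-2 than in shcbx8-1 (SE, edgeR adjusted p = 0.0490). COX7B, a small subunit encoded on the X chromosome, had 122 and 116 CPM in control, 106 and 116 in shcbx8-1 and, in shcbx8-2, 140 and 139, a difference of 0.33 ± 0.08 between the hairpin groups (edgeR adjusted p = 0.0463). The shcbx8-2 libraries of COX7B lay above all 4 others.

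The shift of COX7C was set beside the genes around it on chromosome 5, chosen after its values were seen. None of the nearest tested genes, RPS23, TMEM167A, XRCC4, VCAN and EDIL3 before it and RASA1, CCNH, TMEM161B, CETN3 and MBLAC2 after it, passed in knockdown against control. VCAN, which codes for the matrix proteoglycan versican, passed in shcbx8-2 against control, with a log2 fold change of 0.43 (edgeR adjusted p = 0.0408).

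The letters printed in capitals in the COX7C promoter were also counted elsewhere, on both strands and with no overlap with the other motifs required. The ZNF143 letters were taken, after that promoter had been read, from the stretch it holds 2 times, with N where the copies differ. The 2 copies in COX7C were thus fixed by this choice, and its own match is part of the shares below. The letters were found in 2 of 68 members with a promoter window (2.94%), COX7C and COX7B. They were in 1.28% of 13051 tested genes with a window and in 0.754% of all 27305 promoters of the same length. COX7C was the one member with 2 or more copies, beside 6 of the tested genes, itself included. Of the other 166 tested genes with these letters, 4 passed upward and 3 downward in knockdown against control, 0 in either direction in shcbx8-1, and 4 upward and 9 downward in shcbx8-2. Their median log2 fold changes were -0.02, -0.00064 and -0.04.

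Letters known from nuclear genes of mitochondrial proteins were found more often in the member windows than in the windows of all genes. The NRF1 letters GCATGCGC were in 13 of 68 member windows (19.1%), 5.19% of tested genes and 3.27% of all promoters. The ETS letters CCGGAAG were in 20 (29.4%), against 17.2% and 10.7%, and the YY1 letters AAGATGGC in 11 (16.2%), against 4.68% and 3.03%. A match describes the sequence and is not a binding site, and base composition was not matched between these sets.

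Complex I, NADH dehydrogenase, is the largest of the complexes, and all 36 of its members were tested. Their median log2 fold change was -0.05 in shcbx8-1 and 0.13 in shcbx8-2 against control, with 16 and 27 of 36 above 0. NDUFA6, an accessory subunit of the LYR family that carries acyl carrier protein, had 78.6 and 79.2 CPM in control, 71.5 and 83.0 in shcbx8-1 and, in shcbx8-2, 111 and 105. The shcbx8-2 libraries lay above all others and the other 4 overlapped.

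NDUFA6 (gene 4700, chromosome 22, 42085526 to 42090772) rose by 0.45 ± 0.10 on the log2 scale in shcbx8-2 against control (SE, edgeR adjusted p = 0.0275) and stood 0.48 ± 0.10 above shcbx8-1 (edgeR adjusted p = 0.0274). The first call ended without control replicate 1 (adjusted p = 0.164) or 2 (0.172). It ended as well with the repeated entries of the table left out (0.0602): the table lists NDUFA6 at 4 near-equal entries of 1 transcript, so its reads may have been split between copies and its level is uncertain. NDUFA9, an accessory subunit near the quinone site, had 97.2 and 94.7 CPM in control, 90.3 and 90.5 in shcbx8-1 and, in shcbx8-2, 116 and 109, and the hairpin groups differed by 0.31 ± 0.08 (edgeR adjusted p = 0.0479). Here the 3 groups did not overlap, with shcbx8-1 lowest and shcbx8-2 highest.

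Other complex I members at the ends of the range did not pass. NDUFS1, the large iron-sulfur subunit, had 92.6 and 94.8 CPM in control, 72.5 and 79.96 in shcbx8-1 and, in shcbx8-2, 88.4 and 93.9, a log2 fold change of -0.30 ± 0.09 in shcbx8-1 (edgeR adjusted p = 0.138). It passed in 5 of 14 alternatives, among them DESeq2 (adjusted p = 0.0339), and turned to 0.19 without the repeated entries of the table, since its main entry is one of these. NDUFB3, a small membrane subunit, had a log2 fold change of -0.33 ± 0.13 there (edgeR adjusted p = 0.278), with 30.6 and 25.4 CPM in control and 21.4 and 23.3 in shcbx8-1. Both shcbx8-1 libraries were below both controls for NDUFS1 and NDUFB3. At the other end stood NDUFS8, an iron-sulfur subunit, with 115 and 127 CPM in control and 132 to 155 CPM in the 4 knockdown libraries, a log2 fold change of 0.22 ± 0.09 (edgeR adjusted p = 0.206). NDUFB1 had 11.1 and 9.03 CPM in control, and 11.2 and 13.1, and 11.9 and 15.1 CPM in the knockdown groups (0.35 ± 0.16, edgeR adjusted p = 0.243). NDUFV1, which holds the flavin that accepts electrons from NADH, had 203 and 219, 203 and 193, and 243 and 210 CPM, and its shcbx8-2 libraries overlapped control. In shcbx8-2 against control NDUFB5 had a log2 fold change of -0.11 ± 0.12, and in shcbx8-2 against shcbx8-1 NDUFA3 had -0.14 ± 0.13, both accessory subunits.

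NDUFA5, an accessory subunit of the matrix arm, gave the widest spread within a group. It had 46.6 and 49.6 CPM in control, 53.4 and 57.7 in shcbx8-1 and, in shcbx8-2, 27.2 and 61.6, so the shcbx8-2 libraries fell on both sides of the other 4. Its log2 fold change in shcbx8-2 against control was -0.12 ± 0.33 (edgeR adjusted p = 0.854) with both libraries. It was 0.37 without shcbx8-2 replicate 1 (adjusted p = 0.0180) and -0.83 without replicate 2 (edgeR adjusted p = 0.000326).

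Complex II, succinate dehydrogenase, is encoded in the nucleus entirely. By edgeR 0 of its 4 genes passed in any comparison, beside 2.4% to 12.6% of all genes. At an unadjusted p under 0.05 there was at most 1 per comparison. Of all genes it was 17.2% in shcbx8-1, 29.2% in shcbx8-2 and 26.3% between them. By DESeq2 SDHA passed in shcbx8-2 against control and against shcbx8-1, beside 20.8% and 17.3% of all genes. Counts over 4 genes do not set this complex apart from all genes. SDHA, the flavoprotein, had 200 and 207 CPM in control, 194 and 211 in shcbx8-1 and, in shcbx8-2, 272 and 237. SDHB, the iron-sulfur subunit, had 104 and 95.5, 90.7 and 101, and 123 and 105 CPM. Both were above the other 4 libraries in both shcbx8-2 libraries. Of the membrane anchors, SDHC had 103 and 109, 92.1 and 95.1, and 107 and 104 CPM, and SDHD 66.6 and 66.5, 60.3 and 66.3, and 47.1 and 72.4 CPM. SDHD was thus split between the shcbx8-2 libraries in the same direction as NDUFA5.

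Complex III, the cytochrome bc1 complex, had 0 of 9 genes passing by edgeR in any comparison, beside 2.4% to 12.6% of all genes. At an unadjusted p under 0.05 there were 2 in shcbx8-1, 3 in shcbx8-2 and 8 between the hairpin groups, beside 17.2%, 29.2% and 26.3% of all genes. By DESeq2 there were 1, 3 and 6, beside 9.97%, 20.8% and 17.3%. The median log2 fold change was -0.10 in shcbx8-1 and 0.21 in shcbx8-2 against control, and all 9 were higher in shcbx8-2 than in shcbx8-1, with a median of 0.27. UQCRC2, a core protein, had 280 and 278 CPM in control, 218 and 237 in shcbx8-1 and, in shcbx8-2, 279 and 271. Only the shcbx8-1 libraries lay apart, and the log2 fold change there was -0.29 ± 0.07 (edgeR adjusted p = 0.0918, and 0.00829 to 0.417 over the alternatives). UQCRFS1, the Rieske iron-sulfur protein, had 370 and 376, 376 and 384, and 449 and 413 CPM. UQCRH, the hinge protein, had 121 and 107, 102 and 111, and 127 and 122 CPM. Its near-identical copy UQCRHL had 2.88 and 2.63, 2.10 and 1.82, and 3.33 and 3.61 CPM, and reads of the pair may have been split by the counting.

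Complex V, ATP synthase, had 17 of 18 genes tested. ATP5F1B (gene 506, chromosome 12, 56638175 to 56645984), the catalytic beta subunit, had 1119 and 1129 CPM in control, 1055 and 1120 in shcbx8-1 and, in shcbx8-2, 1504 and 1340. ATP5PD, subunit d of the peripheral stalk, had 124 and 122, 123 and 128, and 167 and 151 CPM. In both genes the shcbx8-2 libraries lay above all others and the other 4 lay close together.

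ATP5F1B rose by 0.34 ± 0.07 on the log2 scale in shcbx8-2 against control (SE, edgeR adjusted p = 0.0280) and was 0.39 ± 0.07 above shcbx8-1 (edgeR adjusted p = 0.0235). ATP5PD rose by 0.37 ± 0.08 (edgeR adjusted p = 0.0282) and was 0.34 ± 0.08 above shcbx8-1 (edgeR adjusted p = 0.0434). Both calls against control ended when a control library (adjusted p up to 0.162) or a shcbx8-1 library (up to 0.0640) was left out, and passed without either shcbx8-2 library. They ended too with a replicate block and in a fit of only the libraries compared (0.0553 for ATP5F1B and 0.0587 for ATP5PD in the latter). The call of ATP5F1B ended as well without the abundance trend (0.0541).

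The 3 genes for the proton-carrying ring subunit c code for the same mature protein. ATP5MC1 had 187 and 186 CPM in control, 175 and 182 in shcbx8-1 and, in shcbx8-2, 192 and 176. ATP5MC2 had 235 and 225, 229 and 233, and 241 and 219 CPM, and for both genes the shcbx8-2 libraries fell on both sides of control. ATP5MC3 had 193 and 185, 157 and 164, and 205 and 201 CPM, with no overlap between the 3 groups. It was the one of the 3 that passed, higher by 0.34 ± 0.07 in shcbx8-2 than in shcbx8-1 (edgeR adjusted p = 0.0303).

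ATP5F1D, the delta subunit of the central stalk, had 70.2 and 57.1 CPM in control, 77.8 and 54.1 in shcbx8-1 and, in shcbx8-2, 127 and 74.7. The libraries within each group lay far apart. The log2 fold change in shcbx8-2 was 0.67 ± 0.27 (edgeR adjusted p = 0.164), 1.00 without replicate 2 of that group and 0.25 without replicate 1. ATP5ME, subunit e, had 18.6 and 15.5, 16.3 and 18.9, and 19.9 and 19.4 CPM. For ATP5F1E, the epsilon subunit, a read-through gene that shares its exons (SLMO2-ATP5E) was listed apart with 324 to 1612 counts, so its own level is uncertain.

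**Figure D2:**
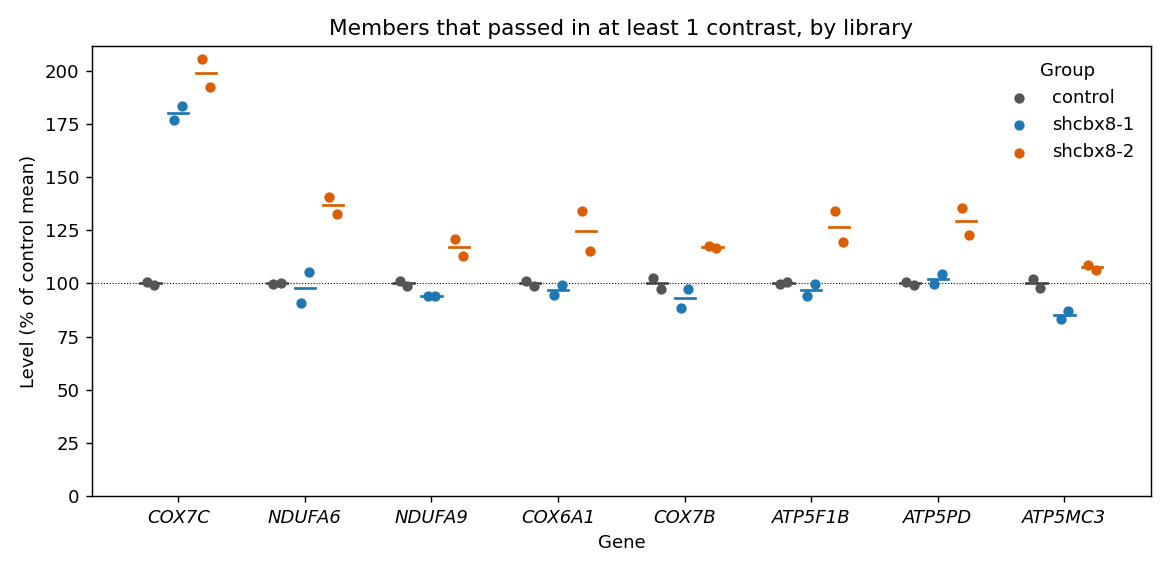
TMM-scaled level of the 8 members that passed in at least 1 comparison, as a percentage of the control mean of each gene (dotted line, 100%). Points are libraries and short lines group means. COX7C is raised in both hairpin groups, while the other 7 are above control in shcbx8-2 and lie around or below it in shcbx8-1.

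Over all complexes, the members' medians differed from control by small amounts. The median log2 fold change of the 78 members was 0.05 for both knockdown groups, -0.05 for shcbx8-1 and 0.14 for shcbx8-2 against control, and 0.20 for shcbx8-2 against shcbx8-1. The medians of all genes tested were -0.04, -0.01, -0.04 and -0.01. Over the 7848 genes with a mean of at least 20 CPM, which include 73 members, they were 0.03, 0.03, 0.05 and 0.04. Against shcbx8-1, 73 of 78 members were higher in shcbx8-2, and without COX7C the medians were -0.05, 0.14 and 0.21.

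The same shift appeared in each complex. Median log2 fold changes in shcbx8-2 against shcbx8-1 were 0.17 in complex I, 0.21 in complex II, 0.27 in complex III, 0.23 in complex IV and 0.16 in complex V. By library, the members' median difference from the control mean was -0.09 and -0.0049 in shcbx8-1 and 0.20 and 0.10 in shcbx8-2. Replicate 1 of each hairpin group lay farther from control than replicate 2. The pooled SD of this median between libraries of a group was 0.06, which the shcbx8-1 difference from control did not exceed, and the shcbx8-1 median changed sign, to 0.0082, without shcbx8-1 replicate 1. The comparisons with control share the control libraries, and those of the hairpin groups with each other share theirs, so they are not independent.

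**Figure D3:**
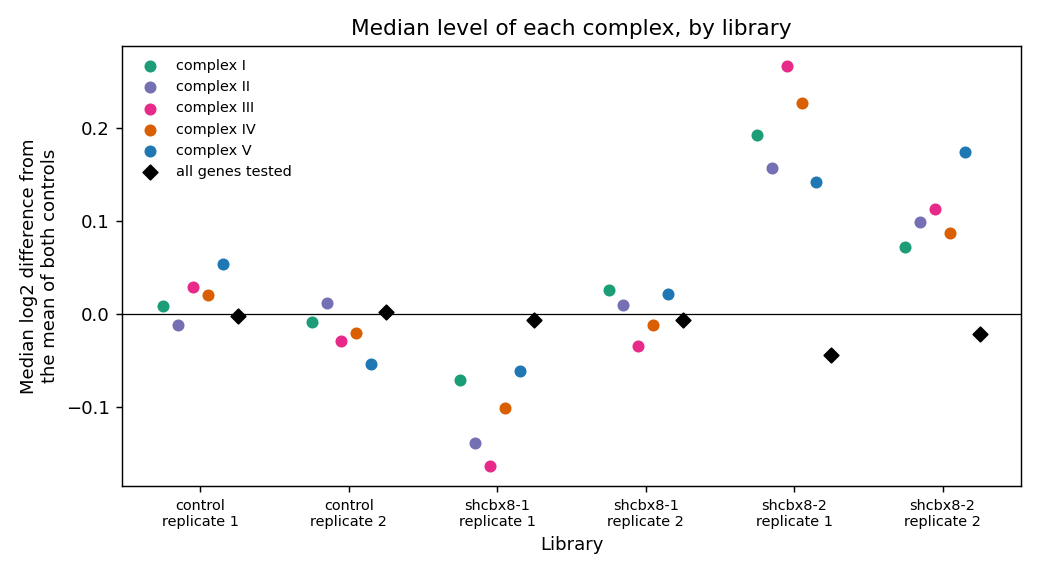
Median log2 difference of each library from the mean of both controls (y axis), for the tested genes of complexes I to V (coloured points) and for all genes tested (black diamonds). The complexes lie above 0 in both shcbx8-2 libraries, below it in shcbx8-1 replicate 1, and near 0 in shcbx8-1 replicate 2.

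Counting members whose libraries did not overlap gave the same picture. In shcbx8-2, 48 of 78 members lay above both controls and 2 below, against 26% and 31.5% of all genes. In shcbx8-1, 10 lay above and 26 below, against 28.4% and 28.9%, so the lower count is near the background. Between the hairpin groups 52 members were higher in both shcbx8-2 libraries and 0 lower, against 26.2% and 27.9%. All 4 knockdown libraries were above control for 9 members and below for 2, against 13.2% and 15.5%. Among genes with at least 20 CPM, 50 of 73 members were higher in shcbx8-2 than in shcbx8-1, against 34.8%, and 0 were lower, against 23.7%. Against control 45 were higher in shcbx8-2, against 38.6%, and 2 lower, against 22.9%. In shcbx8-1, 9 were higher, against 38.6%, and 25 lower, against 26.5%. At an unadjusted p under 0.05 there were 22 of 78 members in shcbx8-2, beside 29.2% of all genes, 8 in shcbx8-1, beside 17.2%, and 31 between them, beside 26.3%. The first of these counts is near the background, the second below it and the third above it.

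**Figure D4:**
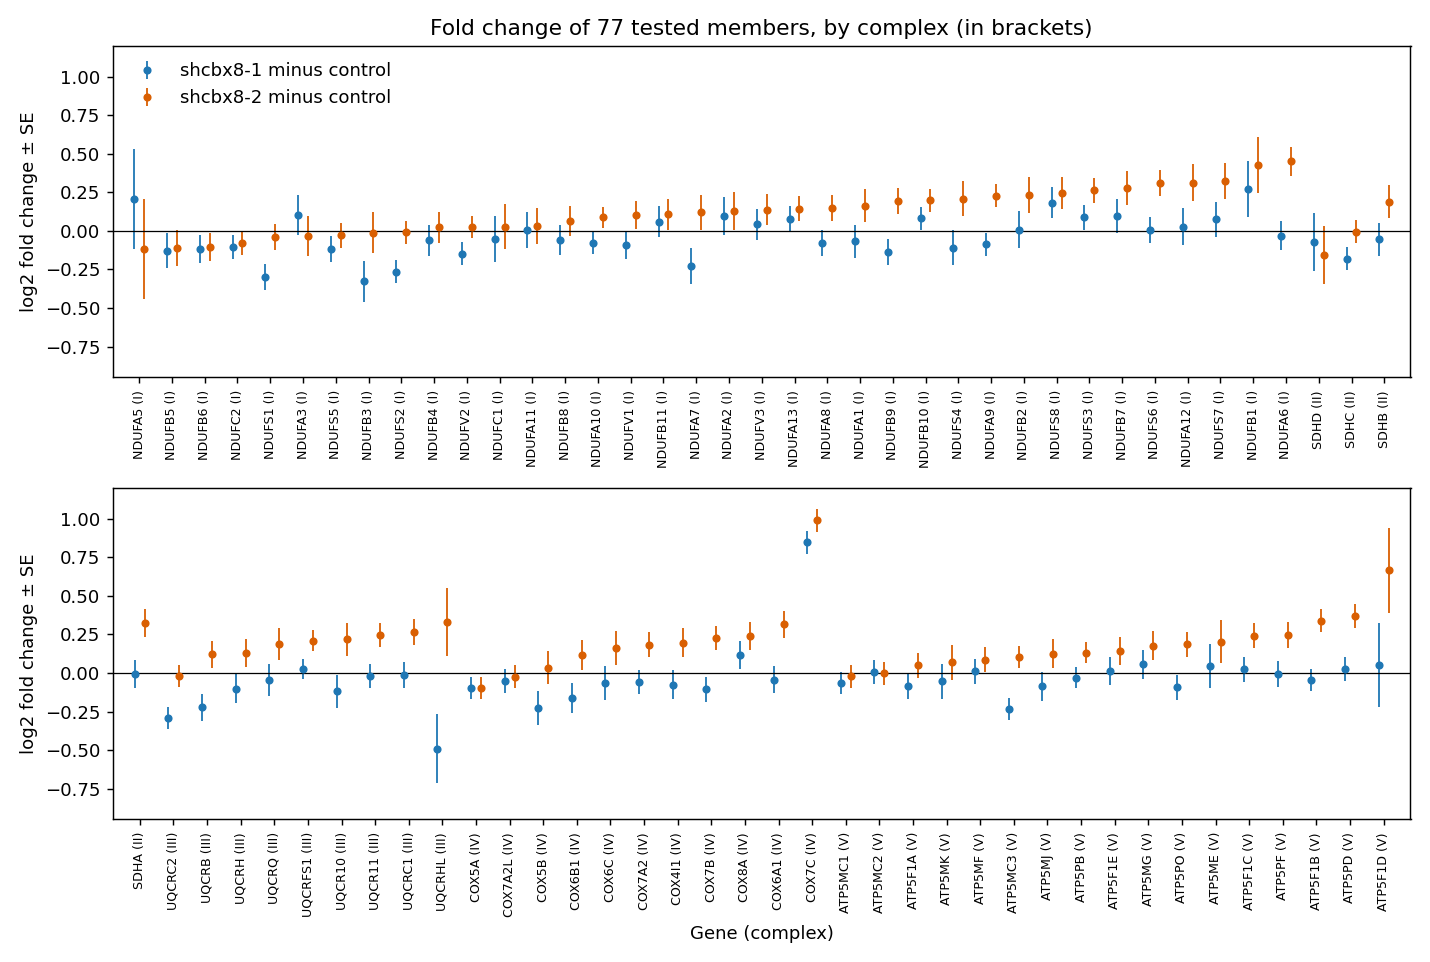
Log2 fold change against control (y axis) of 77 tested members in shcbx8-1 and shcbx8-2, with SE, grouped by complex and ordered by the shcbx8-2 value. COX6B2 is left out for its low counts. Most shcbx8-2 values lie between 0 and 0.5 and most shcbx8-1 values within 0.25 of 0, and COX7C is the one gene high in both.

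The members repeated well within groups, with a median absolute log2 difference between the libraries of 0.0656 in control, 0.0943 in shcbx8-1 and 0.114 in shcbx8-2, against 0.116, 0.115 and 0.207 over all genes tested. In shcbx8-2 that difference moved with the GC content of the transcripts. Across 77 members, which are not independent replicates and share libraries, the Spearman correlation of GC content with replicate 2 minus replicate 1 was 0.0636 in control, -0.147 in shcbx8-1 and -0.601 in shcbx8-2. Over 16196 genes it was 0.105, -0.141 and -0.535, so the members followed all genes. GC-poor NDUFA5 and SDHD and GC-rich ATP5F1D stood at the ends. The fold changes of shcbx8-2 against shcbx8-1 had a Spearman correlation of -0.0241 with GC content across members, and those against control 0.360 in shcbx8-1 and 0.262 in shcbx8-2. With an offset for GC content in each library the median of shcbx8-2 against shcbx8-1 was 0.19, against 0.20, and 16 of 78 members passed, beside 17.6% of all genes.

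**Figure D5:**
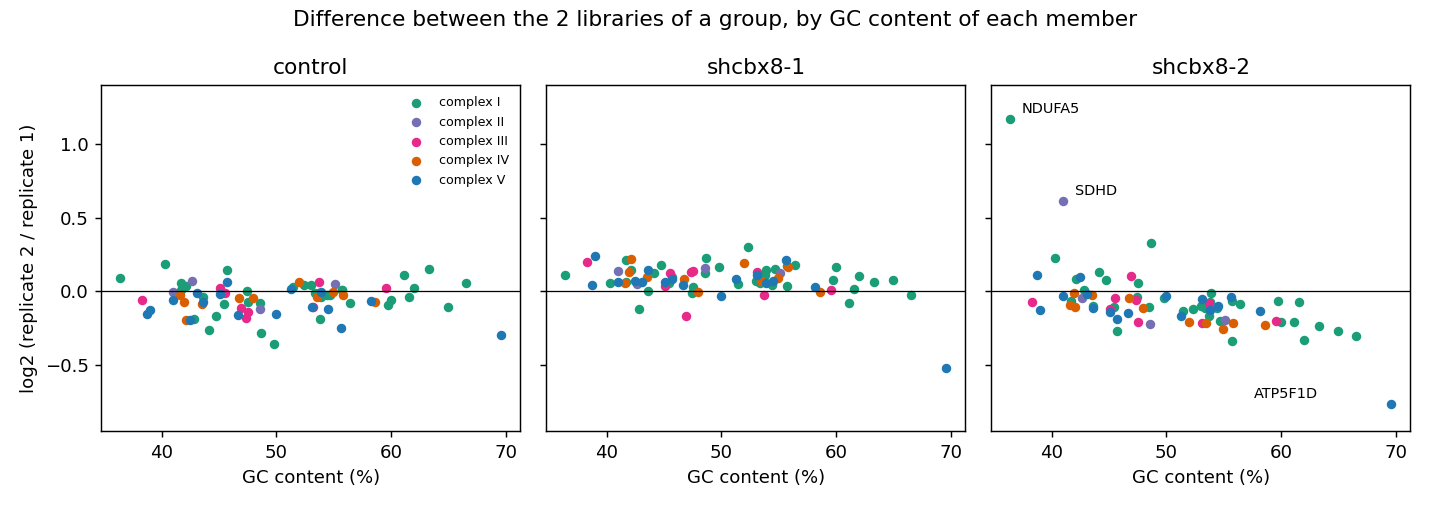
Log2 ratio of replicate 2 to replicate 1 within each group (y axis) against GC content of the gene's transcript in percent (x axis) for 77 members, coloured by complex. In control 24 of 77 points lie above 0 and in shcbx8-1 67, and in shcbx8-2 they fall from positive at low GC to negative at high GC.

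The rest of the mitochondrial programme was read from lists of known genes. Chain genes outside the naming rule, such as those for cytochrome c1 and the acyl carrier protein, gave 0 of 12 passing by edgeR in any comparison, with at most 3 at an unadjusted p under 0.05 and 2 by DESeq2. The assembly factors of complexes III and IV likewise gave 0 of 9 and 0 of 27, with at most 4 at an unadjusted p under 0.05 and 2 by DESeq2 in each list. Of all genes, 2.4% to 12.6% passed by edgeR and 9.97% to 20.8% by DESeq2, depending on the comparison. At an unadjusted p under 0.05 there were 17.2% in shcbx8-1, 29.2% in shcbx8-2 and 26.3% between them. The lists were not tested against these shares, and 0 calls in lists this small do not set them apart. Of 19 complex I assembly factors, FOXRED1 passed, higher in shcbx8-2 than in shcbx8-1. Of 4 for complex II, SDHAF2, which attaches the flavin to SDHA, had 45.1 and 42.6 CPM in control, 54.2 and 53.9 in shcbx8-1 and, in shcbx8-2, 28.7 and 27.6. It fell by 0.64 ± 0.09 on the log2 scale in shcbx8-2 against control (edgeR adjusted p = 0.00786), a call that ended without control replicate 1 (0.0772) or 2 (0.0678). Of 5 ATP synthase factors, TMEM70 and ATPAF1 rose in shcbx8-2, calls that ended in 6 and 5 of 14 alternatives, as that of FOXRED1 did in 8. In this and the next paragraph, genes that passed only in comparisons other than knockdown against control were named after their values were seen.

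Among 16 regulators of mitochondrial biogenesis, PPARGC1A, the coactivator PGC-1alpha, had 9.001 and 10.6 CPM in control, 2.67 and 3.74 in shcbx8-1 and, in shcbx8-2, 10.7 and 16.6. It was lowest in shcbx8-1, with a log2 fold change of -1.61 ± 0.27 against control (edgeR adjusted p = 0.0360, and 0.211 to 0.320 with any 1 control or shcbx8-1 library left out), and was 2.09 ± 0.27 higher in shcbx8-2 than in shcbx8-1 (edgeR adjusted p = 0.00755, and 0.107 or 0.0756 without shcbx8-1 replicate 1 or 2). ESRRA, a nuclear receptor that acts with it, and PPRC1, a related coactivator, rose in shcbx8-2 (edgeR adjusted p = 0.0493 and 0.0326), calls that ended in 8 and 6 of 14 alternatives (adjusted p up to 0.237 and 0.188). Of 19 genes of the citric acid cycle 3 rose in shcbx8-2 (among them OGDH and FH, whose calls ended in 2 and 7 of 14 alternatives), 0 passed in shcbx8-1 (5 at an unadjusted p under 0.05 and 3 by DESeq2), and 6 were higher in shcbx8-2 than in shcbx8-1. Of 77 mitochondrial ribosomal proteins 9 rose in shcbx8-2 and 0 fell, while 0 passed in shcbx8-1 (7 at an unadjusted p under 0.05 and 3 by DESeq2). Of 13 genes of coenzyme Q synthesis 1 rose in shcbx8-2, COQ7, a call that ended in 5 of 14 alternatives. Of all genes, 6% rose and 6.63% fell in shcbx8-2, and 4% were higher in shcbx8-2 than in shcbx8-1. In shcbx8-1 2.4% of all genes passed, with 17.2% at an unadjusted p under 0.05 and 9.97% by DESeq2. The lists' median log2 fold changes in shcbx8-2 against shcbx8-1 were 0.26 for the regulators, 0.19 for the cycle, 0.18 for the ribosomal proteins and 0.18 for coenzyme Q synthesis, beside 0.20 for the chain members. The 85 cytosolic ribosomal proteins had a median of 0.15.

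For the mean of both knockdown groups the lists gave few calls, beside 3.3% of all genes called upward and 3.47% downward. MTX2, a metaxin of the outer membrane listed with the cristae genes, fell by 0.66 ± 0.09 on the log2 scale (edgeR adjusted p = 0.0129), with 37.0 and 35.2 CPM in control, 31.6 and 34.6 in shcbx8-1 and, in shcbx8-2, 16.0 and 15.4. Of 24 import genes, TOMM5 rose by 0.41 ± 0.08 (edgeR adjusted p = 0.0308) and TIMM13 by 0.36 ± 0.08 (edgeR adjusted p = 0.0497). Of the mitochondrial ribosomal proteins, MRPL11, MRPL20 and MRPL17 rose by 0.34 ± 0.07, 0.38 ± 0.07 and 0.34 ± 0.07 (edgeR adjusted p = 0.0304, 0.0308 and 0.0371). These 6 calls ended when a control or a shcbx8-1 library was left out. Over all 14 alternatives the call of MTX2 ended in 5, those of TOMM5, MRPL11 and MRPL20 in 6, and those of TIMM13 and MRPL17 in 7. The adjusted p there reached 0.553 for MTX2 and 0.313 for the others. By group, MTX2 passed in shcbx8-2 against control (log2 fold change -1.20, edgeR adjusted p = 0.00252) and did not pass in shcbx8-1. The genes encoded on the mitochondrial genome were not analysed here.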

How the data were processed

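RNA sequencing of 6 libraries was used, in 3 groups of 2 taken from the sample titles. The authors deposited expected counts per RefSeq transcript (reads estimated for each, whole numbers, unscaled). HISAT2 2.2.1, StringTie 2.2.1, DESeq2 1.34.0 and hg38 are named in the submitters' processing notes, with no roles. How reads were annotated and counted is not given in the sources used here. Of 84787 transcripts, 83963 took their gene from RefSeq's table of GRCh38.p14 and 264 from GENCODE, which is 99.34%, and 560 stayed as entries of their own. Counts were summed per gene, repeated entries (2.89 to 3.17% of counts) included. Read-through genes were kept apart from the members.

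Tests used edgeR 4.0.16 in R 4.3.3. The 17132 genes kept by filterByExpr (at least 10 counts, total of at least 15) entered 1 quasi-likelihood fit of the 3 groups and 6 libraries after TMM scaling, with 3 residual degrees of freedom and a common dispersion of 0.0372. Two-sided p-values were adjusted over these genes (Benjamini-Hochberg), and 0.05 was the threshold. The F statistic gave the standard errors. Levels are CPM, not per length, and are compared only within a gene. The pipeline was tested on simulated counts with a lower dispersion than in these data and larger planted changes than those of most members. That test does not show how the fit performs at the spread and the changes seen here. Counting error is small at these depths, and precision is limited by 2 libraries per group.

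Named genes are members that passed in any comparison, the 4 highest and 4 lowest fold changes per comparison, the members with the highest and lowest mean level per complex, the isoform groups, the succinate dehydrogenase genes, up to 3 genes per list with the smallest p over both knockdown groups, and CBX8. The members and lists were chosen with earlier results of these data known. Replicate numbers did not pair the samples. There were 15 fits beside the reported one over the 4 comparisons, each comparison having 14: DESeq2 size factors, the DESeq2 1.42.0 Wald test, no filter, a replicate block, each library left out, the libraries compared alone or the knockdown libraries as 1 group, no repeated entries, and, added after seeing the data, a GC offset and no abundance trend. Promoter windows were given for 68 of 84 members. Members at 0 have at most 3 counts per library at this depth, which covers counting error only. Genes encoded on the mitochondrial genome were not analysed here.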

Additional observations from a re-analysis of the deposited data

Results flagged for a closer look

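The test of shcbx8-2 against shcbx8-1 by edgeR, that is of the difference between the effects of the hairpin groups, passed for 7 members, in complexes I, IV and V. On the log2 scale, with SE and adjusted p, NDUFA6 differed by 0.48 ± 0.10 (0.0274), ATP5F1B by 0.39 ± 0.07 (0.0235), COX6A1 by 0.36 ± 0.09 (0.0490) and ATP5PD by 0.34 ± 0.08 (0.0434). ATP5MC3 differed by 0.34 ± 0.07 (adjusted p = 0.0303), COX7B by 0.33 ± 0.08 (0.0463) and NDUFA9 by 0.31 ± 0.08 (0.0479). All 7 were higher in both shcbx8-2 libraries than in both shcbx8-1 libraries. With a control or shcbx8-1 library left out the adjusted p of these genes was 0.0614 to 0.282. No group has 4 or more libraries, so single libraries were not tested for standing apart.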

How the results depend on the processing

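Over 40 results on named members the direction held under all alternatives for 30, and of 13 calls 1 (COX7C in shcbx8-2) passed in all. All 66 results on other named genes kept their direction, and 1 call of 66 (MTX2 in shcbx8-2) passed in all. With 1 library left out, members called ranged from 0 to 17 in knockdown against control, 0 to 5 in shcbx8-1, 1 to 29 in shcbx8-2 and 0 to 39 between the hairpin groups, beside 1, 1, 4 and 7 with all libraries. The highest counts came without shcbx8-2 replicate 2 and, in shcbx8-1, without either shcbx8-2 library. Without shcbx8-2 replicate 2, 21.8%, 6.41%, 37.2% and 50% of members tested passed, beside 24.8%, 12.9%, 30.7% and 28.3% of all genes. The median log2 fold change of the members then ranged from 0.02 to 0.09, -0.080 to 0.0082, 0.11 to 0.20 and 0.14 to 0.26. Its sign changed in shcbx8-1 alone, without shcbx8-1 replicate 1. The number of all genes called moved as well, between 1 and 4428 in knockdown against control with 1160 in the full fit, and such a fit takes the lone library of a group to vary like the others.

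Members called were 2, 5, 17 and 22 by the DESeq2 Wald test, 4 in shcbx8-1, 9 in shcbx8-2 and 16 between hairpin groups with the GC offset (8.01%, 21.4% and 17.6% of all genes), and 5, 2 and 0 with only the libraries compared (14.5%, 5.9% and 3.84%). Between the hairpin groups 4 of 80 members passed with no filter (5%, beside 6.39% of all genes) and 3 of 78 with no abundance trend (3.85%, beside 8.17%). Correlations of same-numbered deviations were -0.0077, -0.022 and 0.016, so the replicate numbers did not pair the samples. With the replicate block 1, 1, 3 and 1 members passed, beside 3.86%, 0.986%, 9.76% and 6.25% of all genes. ATP5F1D then passed in shcbx8-2 (0.62, adjusted p = 0.0384), and ATP5F1B and ATP5PD did not (0.0547 and 0.0525).

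Directions turned for COX6B2, which had under 1 CPM. In knockdown against control it was -0.14, 0.25 with the replicate block and -3.43 to 6.77 with 1 library left out. In shcbx8-2 it was -0.35, 0.22 with the block and -6.93 to 6.53, and between hairpin groups -0.42 and -7.01 to 0.57. NDUFS1 turned without repeated entries, to 0.39 in knockdown against control and 0.19 in shcbx8-1, since its main entry is a repeated one. Without shcbx8-2 replicate 1, SDHD turned to 0.14 and NDUFA5 to 0.37 against control (to 0.21 and 0.16 against shcbx8-1), and NDUFB5 to 0.013. With the GC offset NDUFA5 in shcbx8-2 was 0.046. With 1 library left out these lay between -0.50 and 0.14 (SDHD), -0.83 and 0.37 (NDUFA5) and -0.23 and 0.013 (NDUFB5) against control, and between -0.43 and 0.21 (SDHD) and -1.03 and 0.16 (NDUFA5) against shcbx8-1. The cause was not tested for the other changes. Depth limits only the members with under 1 CPM.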
